A study of Mus musculus with 24 samples.

Results

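Gene expression in eWAT, the white fat of the mouse epididymal depot, was compared between circadian times 19 and 7 (CT19 and CT7) in MUT mice, whose central circadian clock is disabled. The comparison takes the 3 arrays titled as MUT eWAT at CT19 and the 3 titled as MUT eWAT at CT7, which are 6 of the 24 arrays of the series, 1 array per mouse. Every gene with a probe set of its own was considered, 22180 in all, each by its brightest such probe set, and the 15526 above the 30th percentile of mean signal were tested.

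The MUT genotype is Syt10-Cre/Cre x Bmal1-flox/-, and the CON genotype set beside it is Syt10-Cre/Cre x Bmal1-+/-. Both therefore carry Cre at both Syt10 alleles and 1 null allele of Bmal1 (gene symbol Arntl), and they differ in whether the remaining allele is floxed or wild type. Cre is driven by the Syt10 locus, so the fat of MUT mice is not the tissue the deletion was aimed at. By the labels, clock function in MUT mice is deleted in the SCN, the suprachiasmatic nucleus of the hypothalamus that acts as central pacemaker. All mice spent 2 weeks in a light-dark cycle, went into constant darkness and were killed on the second day, at CT1, CT7, CT13 or CT19, with 3 mice per genotype and time. CT19 and CT7 lie 12 h apart, and CT counts hours of the circadian day. Circadian time was counted from the earlier lights-off for both genotypes, and the phase of single mice is not given.

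In the mammalian clock, the activators BMAL1, CLOCK and NPAS2 bind E-boxes and switch on the genes of their own repressors, the PER and CRY proteins and the nuclear receptors REV-ERB alpha and beta. The REV-ERB proteins repress Arntl, Clock and Npas2 through elements they share with the ROR activators, and DBP, TEF and HLF drive further genes through D-boxes, where NFIL3 opposes them. Fat cells hold this clock themselves, and the SCN is known to set its timing through feeding, hormones and nerves. White fat stores fatty acids as triglycerides when nutrients are plentiful and releases them in fasting.

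Promoters of the 4 clock genes that passed the test and had a searched motif at their start are shown, 1 window each, to place these genes in the loop. Each window runs from 250 bases before to 50 bases after the transcription start in RefSeq's annotation of GRCm38.p6, 5′ to 3′ on the gene's strand, and capitals mark the motif.
Per3 (chr4:151044616-151044915, minus strand, D-box at 2 places): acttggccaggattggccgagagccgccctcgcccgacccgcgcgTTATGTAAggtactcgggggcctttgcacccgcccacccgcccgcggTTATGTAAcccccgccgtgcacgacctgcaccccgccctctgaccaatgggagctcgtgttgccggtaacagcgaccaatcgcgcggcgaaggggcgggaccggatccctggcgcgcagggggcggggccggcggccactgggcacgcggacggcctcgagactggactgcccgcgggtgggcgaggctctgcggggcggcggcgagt
Nr1d1 (chr11:98775328-98775627, minus strand, E-prime box read from the other strand): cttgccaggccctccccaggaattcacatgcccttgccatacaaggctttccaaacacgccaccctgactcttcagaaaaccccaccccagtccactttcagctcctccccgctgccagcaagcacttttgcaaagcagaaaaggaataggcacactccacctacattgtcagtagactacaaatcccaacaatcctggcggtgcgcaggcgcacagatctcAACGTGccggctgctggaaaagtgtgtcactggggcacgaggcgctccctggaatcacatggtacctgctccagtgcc
Tef (chr15:81802423-81802722, plus strand, E-box): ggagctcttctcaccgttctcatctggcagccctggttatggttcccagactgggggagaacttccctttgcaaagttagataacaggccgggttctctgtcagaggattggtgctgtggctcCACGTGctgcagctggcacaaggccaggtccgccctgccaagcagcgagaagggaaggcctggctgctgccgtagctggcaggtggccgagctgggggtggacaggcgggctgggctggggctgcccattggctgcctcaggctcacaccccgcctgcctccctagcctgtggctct
Arntl (chr7:113207261-113207560, plus strand, second of its 2 listed starts, ROR/REV-ERB element core): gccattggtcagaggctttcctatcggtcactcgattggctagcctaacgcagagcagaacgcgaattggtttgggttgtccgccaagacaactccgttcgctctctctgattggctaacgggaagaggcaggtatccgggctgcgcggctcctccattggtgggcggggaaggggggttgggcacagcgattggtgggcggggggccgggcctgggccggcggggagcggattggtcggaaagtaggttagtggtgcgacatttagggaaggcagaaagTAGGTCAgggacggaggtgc
The motifs searched on both strands were the E-box CACGTG, the E-prime box CACGTT, the D-box TTATGNAA and the ROR/REV-ERB cores TAGGTCA and TGGGTCA, none of which overlapped in these windows. Of 32851 mouse promoter windows of this length, 7.2% held the E-box, 4.7% the E-prime box, 3.4% the D-box, 2.6% TAGGTCA and 4.0% TGGGTCA. The windows of Npas2, Usp2 and Dbp, all 3 windows of Clock and the first window of Arntl, genes that passed too, held none of these letters, and the second Tef window held 1 more E-box. A match is a description of the letters and not a measured binding site.

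The values are log2 signals that the authors made with RMA, a method that corrects, normalizes and summarizes Affymetrix probes. The 6 arrays had medians of 7.802 to 7.881 and correlated with each other at 0.9891 to 0.9954. The source field of the labels names the mediobasal hypothalamus, whereas titles and treatment describe eWAT. The 11 adipocyte markers had a median log2 signal of 12.45, and of 12 measured markers of hypothalamus and neurons, whose median was 7.77, 5 fell below the level filter. Syt10, the locus that carries Cre, had 7.25, 7.30 and 7.43 in MUT CT19 fat and 7.64, 7.41 and 7.42 in MUT CT7 fat (difference -0.16, adjusted p = 0.377). Arntl transcript in fat does not check a deletion aimed at the SCN, so no gene of these arrays tests the genotype directly. Throughout, values of single arrays are given in the order of the letters in the titles, called mouse 1, 2 and 3. A difference is CT19 minus CT7 in log2 units with the standard error (SE) of a limma model over all 24 arrays, and a gene passed where its p, adjusted over all genes tested by the Benjamini-Hochberg method, was under 0.05.

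In MUT fat, 129 genes passed between CT19 and CT7, which is 0.831% of those tested. At CT19, 90 were higher (0.58%) and 39 were lower (0.251%). The clock genes Npas2, Arntl, Clock and Nr1d1, the fuel-switch genes Pdk4, Angptl4 and Txnip, and the amino acid transporter Slc7a8 were among the higher ones. Per3, Dbp, Tef, Usp2 and Wee1 of the clock and its outputs, the ketone-using lipid synthesis gene Aacs and the adipokine genes Nampt and Nrg4 were among the lower ones. Differences were mostly modest: the median absolute difference of the genes that passed was 0.49, 41 reached 1.5-fold and 7 reached 2-fold. Without adjustment, 2176 genes had a p under 0.05 (14.0%). In 2010 genes (12.9%) all MUT CT19 arrays lay above all MUT CT7 arrays, and in 1152 (7.42%) all lay below. The design text gives 3 mice per time point, so the p-values measure the spread between mice.

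After quantile normalization of the arrays, 68 genes passed, 36 higher and 32 lower, so that the share of higher genes depended on the scaling. The number of genes that passed also moved with single animals. It was 19 without MUT CT7 mouse 1, 32 without MUT CT7 mouse 2 and 60 without MUT CT7 mouse 3. It was 28 without MUT CT19 mouse 1, 24 without MUT CT19 mouse 2 and 253 without MUT CT19 mouse 3. Of the 129 genes, 16 passed without each of the 6 arrays, and 13 passed in every alternative processing that gave them a value. That count took up to 17 alternative fits per gene, and the 1.5-fold minimum was not among them. Those 13 were Arntl, Npas2, Per3, Tef, Usp2, Wee1, Pdk4, Slc7a8, Dtx4, Nrbp2, Map2k3, Prr13 and Rasl11a, of which Map2k3, Prr13 and Rasl11a are named because of this count. The others lost their call without at least 1 array or in at least 1 alternative.

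Among the activators of the clock, 3 of 4 tested genes were higher at CT19 in MUT fat and none was lower. Npas2, the partner of BMAL1 that can stand in for CLOCK, had 9.52, 9.59 and 9.83 in MUT CT19 fat, against 8.43, 8.39 and 8.24 in MUT CT7 fat. Every MUT CT19 array lay more than 1 log2 unit above every MUT CT7 array, and the difference of 1.29 ± 0.17 (SE, adjusted p = 0.000473), or 2.45-fold, was the largest rise that passed. Arntl, which encodes BMAL1, had 8.96, 9.12 and 9.38 in MUT CT19 fat and 8.25, 7.92 and 8.39 in MUT CT7 fat. Its groups did not overlap, and they differed by 0.96 ± 0.14 (adjusted p = 0.00132). Clock had 11.38, 11.33 and 11.42 at CT19 and 10.74, 10.96 and 10.88 at CT7 in MUT fat. This smaller difference of 0.52 ± 0.09 (adjusted p = 0.0039) was lost without MUT CT7 mouse 1, where it was 0.46. Rora, an activator of Arntl, differed by -0.08 (adjusted p = 0.74), and its groups overlapped. In CON fat the same 3 activators rose between the same times, Npas2 by 1.45, Arntl by 1.47 and Clock by 0.79, and for none of them was a difference between MUT and CON shown. The gap, MUT minus CON, was -0.15 ± 0.24 for Npas2, -0.51 ± 0.20 for Arntl and -0.27 ± 0.12 for Clock (SE, adjusted p = 0.847, 0.236 and 0.311).

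The repressors did not move as a block. Per3, a PER family member whose promoter above holds the D-box at 2 places, was 9.08, 9.04 and 8.87 in MUT CT19 fat and 10.27, 10.50 and 10.12 in MUT CT7 fat. All MUT CT19 arrays were more than 1 log2 unit below all MUT CT7 arrays, with a difference of -1.30 ± 0.16 (adjusted p = 0.000187), the largest fall that passed, and CON fat had -1.57. Nr1d1, which encodes REV-ERB alpha, had 11.95, 11.81 and 11.24 in MUT CT19 fat and 10.80, 10.90 and 10.78 in MUT CT7 fat. It was higher at CT19 by 0.84 ± 0.17 (adjusted p = 0.0246), with MUT CT19 mouse 3 nearest to the CT7 arrays. The Nr1d1 call was kept only without that mouse, where the difference was 1.05, and was lost without any 1 of the other 5 MUT arrays, where differences ran from 0.69 to 0.87. In CON fat Nr1d1 stood at 9.54, 9.12 and 9.61 at CT19 and 12.38, 12.06 and 12.25 at CT7. The CON difference of -2.81 thus ran the other way, and the genotypes' differences were 3.65 ± 0.24 log2 units apart (adjusted p = 4.95e-09), the largest such gap of any gene tested.

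The 7 other repressors tested did not pass in MUT fat. Nr1d2, which encodes REV-ERB beta, had 9.76, 9.71 and 8.91 in MUT CT19 fat and 9.78, 10.01 and 9.67 in MUT CT7 fat. MUT CT19 mouse 3 lay far below the other two, and the difference of -0.36 did not pass (adjusted p = 0.403). Per1 had 10.67, 10.61 and 10.01 at CT19 against 10.76, 11.06 and 10.57 at CT7 in MUT fat (-0.37, adjusted p = 0.231). Mouse 3 was again the lowest of its group. Bhlhe40 (-0.55) and Bhlhe41 (-0.54), which encode the DEC repressors, and Ciart (-0.27), which encodes the repressor CHRONO, had lower means at CT19 and missed the threshold at adjusted p = 0.242, 0.302 and 0.0754. Cry1 and Cry2 differed by -0.10 and -0.02. In CON fat, Nr1d2 (-2.06), Per1 (-1.23), Ciart (-1.06), Cry1 (0.41) and Bhlhe40 (1.17) all passed, and the MUT difference departed from each of these (adjusted p = 0.00171, 0.0266, 0.000215, 0.0403 and 0.00492).

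Of 7 clock output genes, 4 were lower at CT19 in MUT fat and none was higher. Tef, whose promoter above carries an E-box, had 8.65, 8.82 and 8.47 in MUT CT19 fat, against 9.39, 9.45 and 9.51 in MUT CT7 fat. The groups were wide apart, at -0.81 ± 0.11 (adjusted p = 0.000519), and CON fat had nearly the same difference, -0.87; a second and dimmer Tef probe set gave -0.18 in MUT fat. Dbp, a close relative of Tef, had 9.30, 9.18 and 8.57 at CT19 and 9.78, 9.95 and 9.74 at CT7 in MUT fat. Its difference of -0.81 ± 0.17 (adjusted p = 0.027) was smaller than the -2.13 of CON fat by 1.32 (adjusted p = 0.00492). The Dbp call was kept without MUT CT19 mouse 1 and lost without each of the other 5 arrays, with differences of -0.58 to -0.89 there.

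Usp2, a deubiquitinase gene, had 8.76, 8.84 and 8.91 in MUT CT19 fat and 9.53, 9.76 and 9.79 in MUT CT7 fat. The lowest CT7 array lay well above the highest CT19 array, and the difference was -0.85 ± 0.10 (adjusted p = 0.000187). Wee1, a kinase gene that restrains entry into mitosis, had 7.99, 8.01 and 7.79 in MUT CT19 fat and 8.59, 8.99 and 8.78 in MUT CT7 fat, again without overlap (-0.86 ± 0.13, adjusted p = 0.00132). In CON fat the CT19 minus CT7 differences of Usp2 and Wee1 were only -0.19 and -0.12, and the gap to MUT passed for both (adjusted p = 0.0166 and 0.0329). The CON difference of these genes was larger between another pair of times: at CT1 minus CT13, CON fat had -1.05 for Usp2 and -1.12 for Wee1, a contrast chosen after the values were seen and not tested. Hlf (-0.29, adjusted p = 0.0842), Tspan4 (-0.15, adjusted p = 0.52) and Nfil3 (0.04, adjusted p = 0.917) did not pass.

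**Figure D1:**
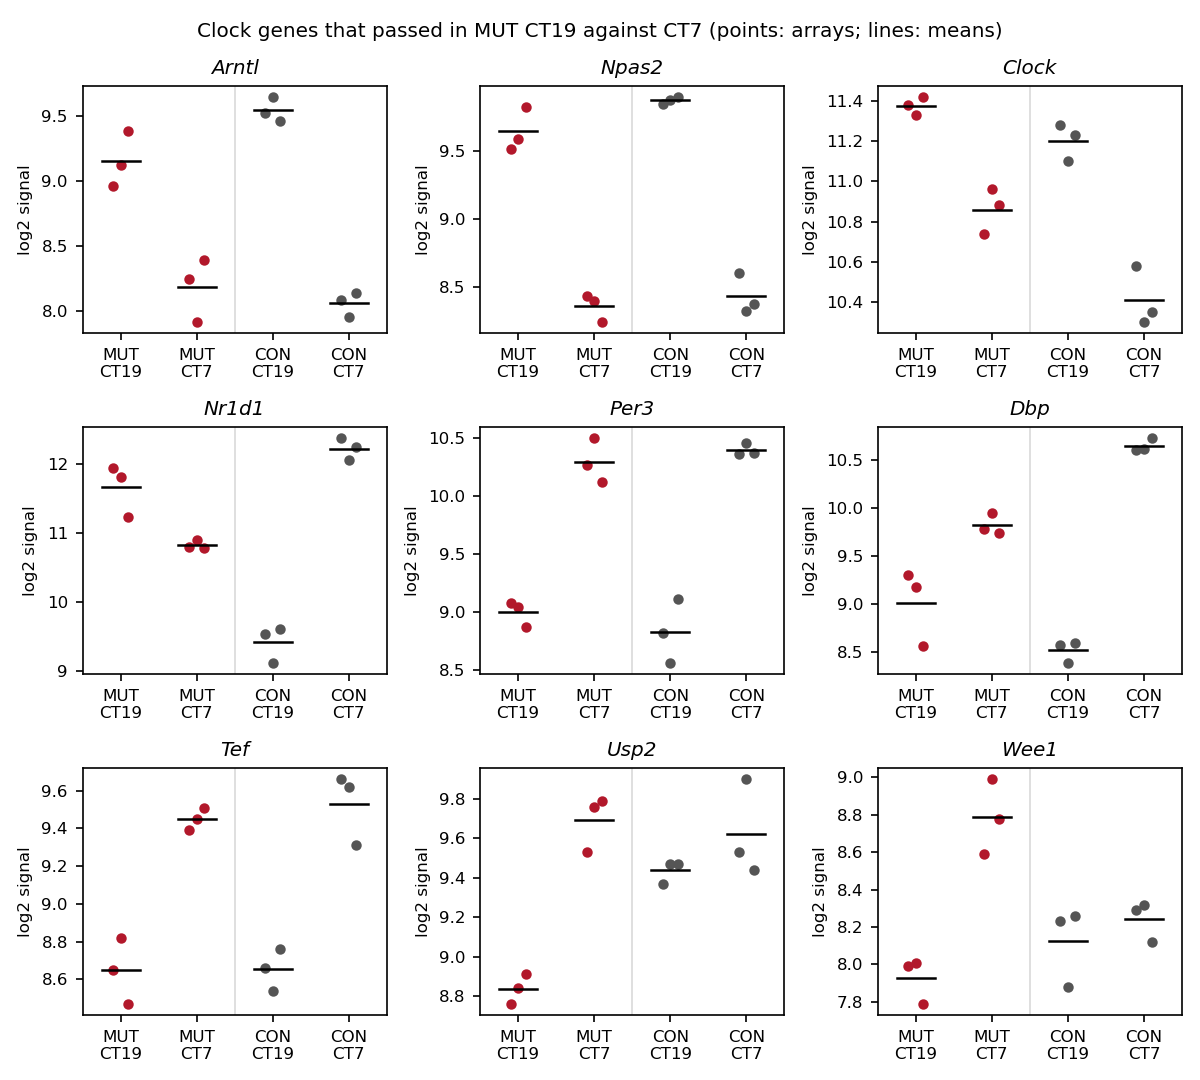
Log2 signal (vertical axis) of the 9 clock genes that passed between CT19 and CT7 in MUT fat, with 1 point per array, 3 per group, and a line at each group mean. MUT groups are red and CON groups grey; Nr1d1 is high at CT19 in MUT and low at CT19 in CON, and Usp2 and Wee1 overlap between the times in CON but not in MUT.

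Over the 3 clock lists together, 9 of 20 tested genes passed between CT19 and CT7 in MUT fat, 4 higher and 5 lower, beside 0.831% of all genes. In CON fat 14 of the 20 passed at the same times, beside 10.7% of all genes (1658; 1160 higher, 7.47%, and 498 lower, 3.21%). Between CT13 and CT1, the other 12-h pair of MUT fat, 8 of all genes tested passed (0.0515%; 3 higher, 0.0193%, and 5 lower, 0.0322%), and 6 of them were clock genes. These 8 genes were Arntl (1.03), Nr1d1 (-1.73), Nr1d2 (-1.18), Per1 (-0.81), Dbp (-0.90), Nfil3 (0.63), Gm6958 (0.42) and Nenf (-0.46). Arntl, Dbp and Nr1d1 passed in both pairs; Arntl was higher and Dbp lower at the later time of each pair, and Nr1d1 was higher at CT19 than at CT7 and lower at CT13 than at CT1. Per3, Tef, Npas2 and Clock had no CT13 minus CT1 difference that passed, at -0.67, -0.53, 0.62 and 0.07.

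Outside the clock, the strongest rise in a metabolic gene was that of Pdk4, whose enzyme shuts pyruvate dehydrogenase and so spares glucose when fat is burned. Pdk4 had 11.05, 11.17 and 11.14 in MUT CT19 fat, against 9.81, 10.34 and 10.17 in MUT CT7 fat. The CT19 arrays were tightly grouped, lay above all 21 other arrays of the series, and exceeded CT7 by 1.01 ± 0.14 (2.02-fold, adjusted p = 0.000519). Angptl4, a secreted inhibitor of lipoprotein lipase induced by fasting, had 11.87, 11.66 and 11.87 in MUT CT19 fat and 10.80, 11.29 and 11.21 in MUT CT7 fat. The groups did not overlap, and the difference was 0.70 ± 0.13 (adjusted p = 0.0156), or 0.55 and not passing without MUT CT7 mouse 1 (adjusted p = 0.11) and 0.67 without MUT CT19 mouse 1 (adjusted p = 0.11). Txnip, which limits glucose uptake, had 13.03, 12.87 and 12.93 at CT19 and 12.33, 12.62 and 12.51 at CT7. Its difference of 0.46 ± 0.11 (adjusted p = 0.0422) was just past the threshold and was lost without any 1 of the 6 arrays, although all MUT CT19 arrays exceeded all others of the series.

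These 3 genes were the only ones of 12 fasting and PPAR targets to pass in MUT fat, beside 0.831% of all genes. The list median was 0.111, beside 0.01 over all genes tested. Cpt1a, the gate of fatty acid entry into mitochondria, came next by p with 0.31 (adjusted p = 0.189). All 3 also differed between genotypes, with CON fat at -0.25 for Pdk4, -0.57 for Angptl4 and -0.44 for Txnip at the same times (differences between genotypes of 1.26, 1.27 and 0.89, adjusted p = 0.00142, 0.00115 and 0.00269). The CON falls of Angptl4 and Txnip passed and that of Pdk4 did not (adjusted p = 0.268). Of 12 fatty acid oxidation genes none passed in MUT fat (median -0.012), and Ppargc1a, a coactivator of mitochondrial genes, had the second smallest p with -0.49 (adjusted p = 0.205).

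Fatty acid and triglyceride synthesis genes were mostly lower at CT19 in MUT fat by their means, and only 1 of 19 passed, beside 0.831% of all genes. Aacs, whose enzyme turns acetoacetate into acetoacetyl-CoA for lipid synthesis, had 9.48, 9.58 and 9.87 in MUT CT19 fat and 10.87, 10.44 and 10.87 in MUT CT7 fat. All MUT CT19 arrays lay below all other arrays of the series, and the difference was -1.08 ± 0.20 (2.12-fold, adjusted p = 0.00972). The call was lost without MUT CT7 mouse 1 (-1.01, adjusted p = 0.071), without MUT CT19 mouse 1 (-1.0, adjusted p = 0.081) and without MUT CT19 mouse 2 (-1.05, adjusted p = 0.062). The list median was -0.323, and 17 of 19 members had a negative difference, where 8320 of all 15526 genes had a positive one. In the lower direction 9 members had an unadjusted p under 0.05, beside 688 of all 15526 genes. In 9 every CT19 array was below every CT7 array, beside 7.42% of all genes. Acacb, the acetyl-CoA carboxylase found at mitochondria, had -0.49 (adjusted p = 0.0769), Mlxipl, which encodes the glucose sensor ChREBP, -0.50 (adjusted p = 0.0823), and Lpin1, a phosphatidate phosphatase, -0.30 (adjusted p = 0.108).

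In CON fat the synthesis list had a median of 0.265, and 3 of 19 rose at CT19, beside 7.47% of all genes, and none fell. The difference between genotypes passed in 5 members, all with the lower CT19 minus CT7 difference in MUT, beside 1.05% of all genes. They were Pnpla3 (-2.13), Aacs (-1.61), Srebf1 (-0.92), Thrsp (-0.85) and Dgat2 (-0.49), with adjusted p from 0.000193 to 0.0447. Srebf1, Thrsp and Dgat2 are named because they passed this test. Pnpla3, a lipid droplet acyltransferase and lipase, had 11.02, 11.17 and 11.79 in MUT CT19 fat and 11.87, 11.67 and 11.92 in MUT CT7 fat. The MUT groups overlapped, and the MUT difference of -0.49 did not pass (adjusted p = 0.225), while CON fat had 12.04, 12.43 and 12.18 at CT19 and 10.69, 10.75 and 10.31 at CT7. CON fat rose by 1.63 and its groups did not overlap.

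Genes of insulin signalling and glucose use gave no call in MUT fat among 15 tested, with a median of -0.206. Ppp1r3c, a glycogen-targeting subunit of protein phosphatase 1, had -0.59 (adjusted p = 0.122), and Hk2, a hexokinase, had -0.47 (adjusted p = 0.0769). The difference between genotypes passed in 5 members, beside 2.03% of all genes. The CT19 minus CT7 difference was lower in MUT than in CON for Ppp1r3c (-1.80), Ppp1r3b (-1.66) and Hk2 (-0.72). It was higher in MUT for Irs2 (1.11) and Pfkfb3 (0.58). These values compare the 12-h differences and not the levels of the genotypes. Sh2b2, which encodes the insulin receptor adaptor APS and was in none of the lists, fell in MUT fat. It had 9.47, 9.54 and 9.54 in MUT CT19 fat and 10.11, 10.23 and 10.40 in MUT CT7 fat, below all other arrays of the series at CT19 (-0.73 ± 0.13, adjusted p = 0.011). CON fat moved by 0.43 instead, and the difference between genotypes was -1.16 (adjusted p = 0.00237).

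Among 13 genes of lipolysis and fatty acid handling Angptl4 alone passed in MUT fat, and the list median was 0.031. Lipe (-0.03) and Pnpla2 (0.04), the hormone-sensitive and adipose triglyceride lipases, were nearly level. Angptl8, an insulin-induced partner of the ANGPTL family, had 9.04, 9.35 and 9.36 in MUT CT19 fat and 9.86, 9.20 and 9.66 in MUT CT7 fat, with overlapping groups (-0.33, adjusted p = 0.715). CON fat, at 11.60, 12.30 and 11.53 at CT19 and 9.12, 9.23 and 9.10 at CT7, rose by 2.66, so that the difference between genotypes was -2.99 ± 0.47 (adjusted p = 0.00171). G0s2 (-1.0), Aqp7 (0.55) and Gpihbp1 (0.58) also differed between genotypes; their MUT differences were -0.25, 0.29 and 0.08. Of 11 cholesterol synthesis genes none passed in MUT fat, while 6 rose in CON fat, beside 7.47% of all genes. Sqle (-0.84), Sc5d (-0.72) and Srebf2 (-0.37) differed between genotypes. These members of both lists, apart from Angptl4, Angptl8 and Aqp7, are named because they passed that test.

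Of 8 adipokine genes, 2 fell in MUT fat at CT19, beside 0.251% of all genes. Nampt, whose enzyme makes NAD precursors and is also secreted, had 9.86, 10.17 and 9.94 in MUT CT19 fat and 10.56, 10.54 and 10.57 in MUT CT7 fat. The CT7 arrays were almost identical and all above CT19 (-0.57 ± 0.11, adjusted p = 0.0142), whereas CON fat rose by 0.37, a gap of -0.94 (adjusted p = 0.00228). Nrg4, which encodes neuregulin 4, a factor that signals from fat to liver, had 9.28, 9.35 and 9.31 at CT19 and 9.93, 9.80 and 9.96 at CT7 in MUT fat. It fell by 0.59 ± 0.09 on the log2 scale (adjusted p = 0.002), passed without each of the 6 arrays and fell in CON fat too, by 0.32. Lep, which encodes leptin, had -0.19 in MUT fat (adjusted p = 0.586) against a rise of 1.10 in CON fat, and the genotypes differed by -1.29 (adjusted p = 0.00127). Adipoq (0.11) and Retn (-0.09) did not pass.

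**Figure D2:**
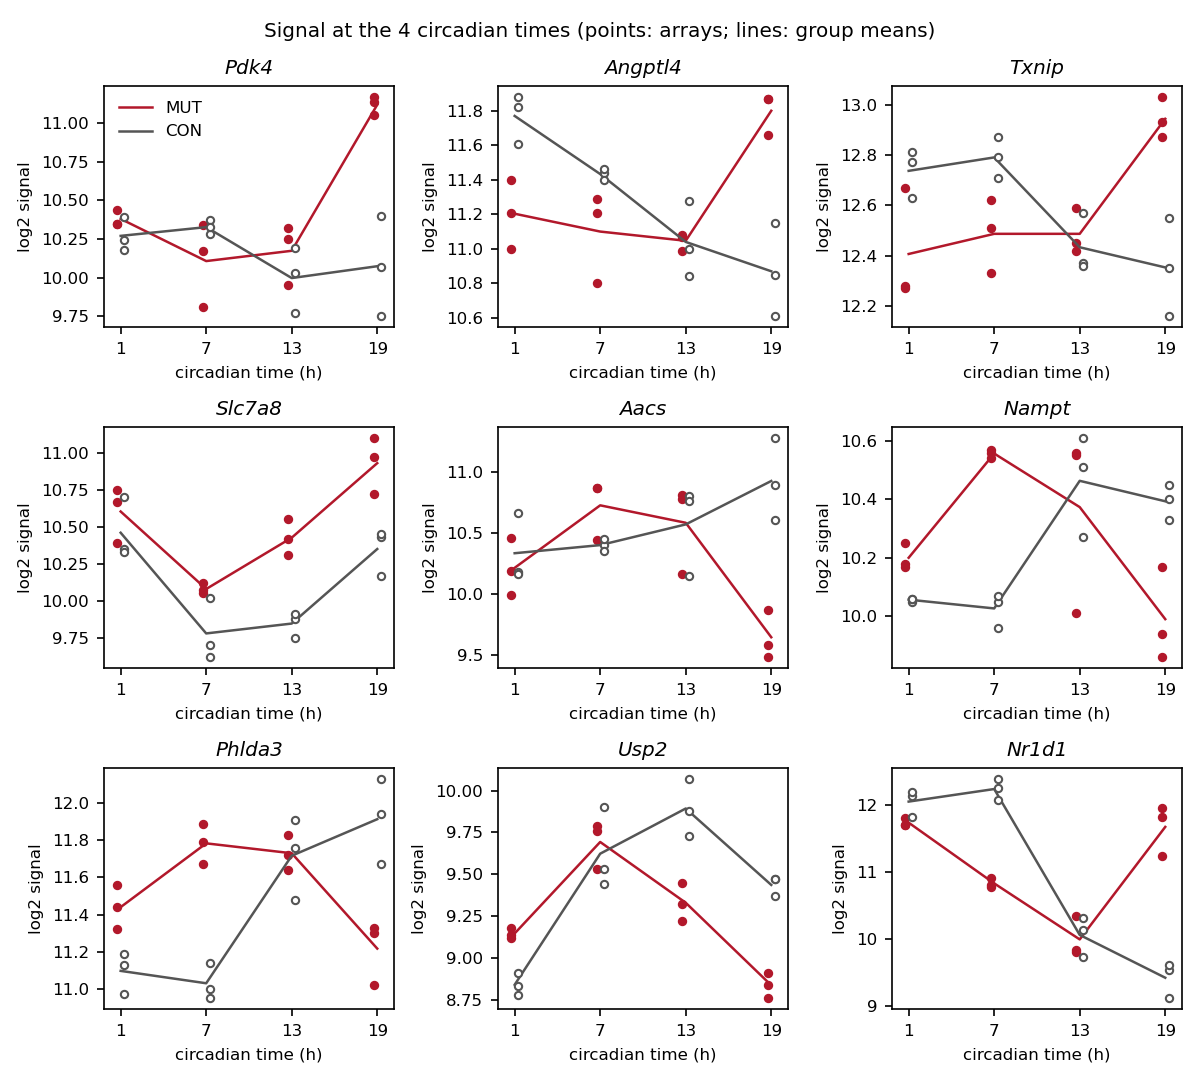
Log2 signal (vertical axis) at the 4 circadian times (horizontal axis, hours) for 9 genes that passed between CT19 and CT7 in MUT fat, with a point for each array and lines through the group means. Pdk4 and Txnip stand out at CT19 in MUT (red). Angptl4 does so among the MUT times, while CON (grey) had similar signals at CT1 (11.61, 11.82 and 11.88). Aacs, Nampt and Phlda3 have MUT means that fall while the CON means are high at CT19.

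The remaining genes with the largest rises belong to several functions. Zim1, an imprinted zinc finger gene, had 10.28, 10.16 and 9.81 in MUT CT19 fat and 8.55, 9.04 and 9.05 in MUT CT7 fat, a difference of 1.2 ± 0.25 (adjusted p = 0.0246). All 3 MUT CT19 arrays exceeded every other array of the series. Slc7a8, which encodes the neutral amino acid transporter LAT2, had 10.72, 10.97 and 11.10 at CT19 and 10.07, 10.05 and 10.12 at CT7. It differed by 0.85 ± 0.12 (adjusted p = 0.000752) and rose in CON fat too, by 0.57. Dtx4, a ubiquitin ligase gene, had 10.50, 10.55 and 10.83 at CT19 and 9.97, 9.75 and 9.74 at CT7 in MUT fat. Its rise of 0.81 ± 0.13 (adjusted p = 0.00345) stood beside one of 1.06 in CON fat. Cdkn1a, which encodes the cell cycle inhibitor p21, had 10.19, 10.61 and 10.83 at CT19 and 9.53, 9.94 and 9.58 at CT7, with no overlap (0.86 ± 0.16, adjusted p = 0.0131), and CON fat had a rise of 1.67.

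Gbp4, a member of the guanylate-binding protein family whose near copies may share probes, had 9.93, 9.77 and 9.72 in MUT CT19 fat and 8.91, 8.48 and 8.76 in MUT CT7 fat. The CT19 arrays stood above all others of the series (1.09 ± 0.25, adjusted p = 0.0446), and CON fat was level at -0.03. Prg4, which encodes the lubricant lubricin, had 10.30, 10.23 and 9.51 at CT19 and 8.81, 8.97 and 8.98 at CT7 (1.10 ± 0.26, adjusted p = 0.0454), with MUT CT19 mouse 3 closest to CT7. Ly96, the MD-2 subunit of the endotoxin receptor, differed by 0.84 (adjusted p = 0.0425). Lyz1, a lysozyme gene with a near-identical neighbour, Lyz2, differed by 0.83 (adjusted p = 0.0489). Zim1, Gbp4, Prg4, Ly96 and Lyz1 each lost their call without at least 4 of the 6 arrays, and all 5 passed without MUT CT19 mouse 3.

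Among the remaining large falls, Slc16a12, a monocarboxylate transporter family gene, had 8.93, 9.31 and 9.65 in MUT CT19 fat and lay between 9.94 and 10.25 in MUT CT7 fat. The groups did not overlap (-0.77 ± 0.14, adjusted p = 0.00686), and CON fat rose by 0.77, an opposite difference of the same size (gap -1.54, adjusted p = 0.000169). Nrbp2, a pseudokinase gene, had 10.01, 10.08 and 10.18 at CT19 and 10.91, 10.64 and 10.78 at CT7, a fall of 0.69 ± 0.11 on the log2 scale (adjusted p = 0.00161) that passed in every alternative. Rgs7bp, which encodes a binding partner of RGS proteins, had -0.77 (adjusted p = 0.0446). Prodh, proline dehydrogenase, had -0.66 (adjusted p = 0.0441). Ndufa11, a subunit of respiratory complex I, had -0.62 (adjusted p = 0.027), and a second, dimmer Ndufa11 probe set had -0.07. Rgs7bp, Prodh and Ndufa11 passed without MUT CT19 mouse 3 and lost their call without at least 4 of the other arrays.

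**Figure D3:**
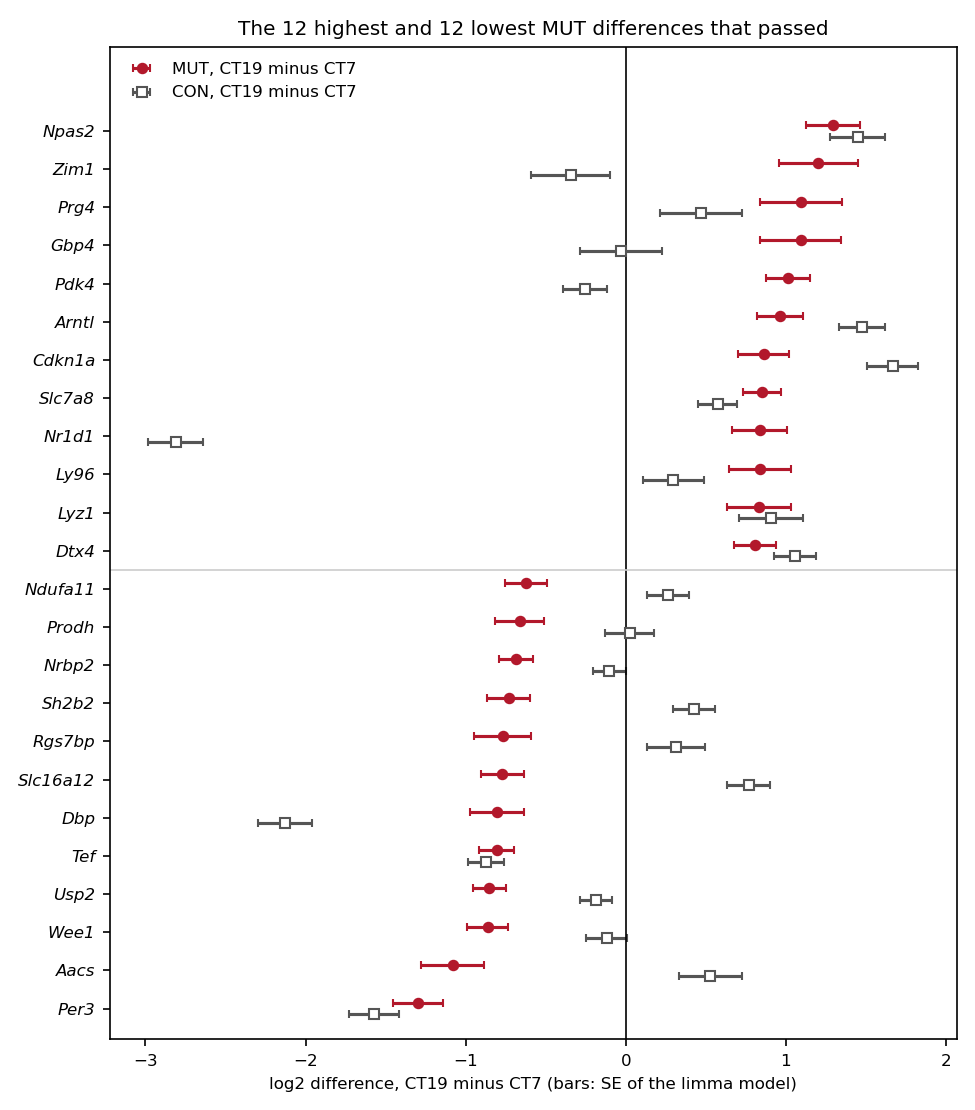
Log2 difference, CT19 minus CT7 (horizontal axis), of the 12 highest and 12 lowest genes that passed in MUT fat, with bars for the SE of the model. Red points are MUT and open grey squares CON; Npas2, Per3, Tef and Lyz1 lie close together in both genotypes, and Nr1d1, Zim1, Pdk4, Aacs and Slc16a12 lie on opposite sides of 0.

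Glucocorticoid targets gave 3 calls of 13 in MUT fat, beside 0.831% of all genes, and the 3 did not share a direction. Pdk4 and Cdkn1a were higher, and Tsc22d3, which encodes the glucocorticoid-induced leucine zipper GILZ, was lower with 9.15, 9.10 and 9.24 at CT19 and 9.49, 9.67 and 9.38 at CT7 (-0.35 ± 0.08, adjusted p = 0.0399). Fkbp5, a chaperone gene that responds strongly to glucocorticoids, had a difference of -0.39 that did not pass, and the list median was -0.044. Of 10 p53 targets, Cdkn1a was higher and Phlda3, an inhibitor of Akt, was lower, beside 0.58% and 0.251% of all genes. Phlda3 had 11.02, 11.30 and 11.33 in MUT CT19 fat and 11.89, 11.67 and 11.79 in MUT CT7 fat (-0.57 ± 0.11, adjusted p = 0.0229), against a rise of 0.88 in CON fat. Their difference of -1.45 passed (adjusted p = 3.52e-05). No gene passed among 10 heat shock, 12 unfolded protein response, 11 immediate early, 5 interferon response, 7 inflammation, 15 oxidative phosphorylation, 7 cell cycle or 2 cold-inducible RNA-binding protein genes by limma. At an unadjusted p under 0.05 these lists held 2, 3, 0, 0, 2, 1, 0 and 0 genes, beside 14.0% of all genes tested.

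Of the marker lists of other cells of the fat pad, those of mesothelium, macrophages, fibroblasts and endothelium had positive median differences in MUT fat, and that of smooth muscle and pericytes a negative one. The mesothelium score, the median over 8 markers of each gene's deviation from its mean over all arrays, was 0.623, 0.543 and 0.153 in MUT CT19 fat and -0.564, -0.179 and 0.162 in MUT CT7 fat. The groups overlapped, since MUT CT7 mouse 3 was slightly higher than MUT CT19 mouse 3. None of the 8 markers passed, and all 8 had positive differences with a median of 0.64. An unadjusted p under 0.05 was found for 7 of them, beside 14.0% of all genes. Muc16 had 1.16 (adjusted p = 0.0833), Msln 1.10 (adjusted p = 0.099) and Upk3b 0.85 (adjusted p = 0.102). In CON fat 7 of the 8 rose between the same times, beside 7.47% of all genes. In whole tissue, more cells of a type and more RNA per cell cannot be told apart.

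Macrophage markers had a median difference of 0.292, and 1 of 11, Lyz1, passed, beside 0.831% of all genes. Differences ran from -0.37 to 0.83 and were positive in 9 of the 11, beside 8320 of all 15526 genes. In 7 every CT19 array was above every CT7 array, beside 12.9% of all genes, and in 1 below, beside 7.42%. Itgam, which encodes CD11b, had 9.27, 9.32 and 8.96 in MUT CT19 fat and 8.51, 8.62 and 8.61 in MUT CT7 fat, without overlap but short of the threshold (0.60, adjusted p = 0.0754). The macrophage score in MUT fat was 0.068, 0.199 and 0.021 at CT19 and -0.167, -0.187 and -0.232 at CT7. Every CT19 array was above every CT7 array. In CON fat the score was 0.207, -0.062 and 0.308 at CT19 and -0.293, -0.288 and -0.291 at CT7, also without overlap. There 5 of the 11 markers rose, beside 7.47% of all genes. Fibroblast and preadipocyte markers had a median of 0.203 in MUT fat with no call in 7. The largest difference was that of Dpp4, a marker of adipose progenitors (0.90, adjusted p = 0.0943). In CON fat 5 of these 7 rose, beside 7.47% of all genes. In the endothelial list 1 of 8 genes passed, beside 0.831% of all genes. Cldn5, a tight junction gene, had 9.68, 10.06 and 10.09 in MUT CT19 fat and 9.40, 9.26 and 9.57 in MUT CT7 fat (0.53 ± 0.12, adjusted p = 0.0357). Pecam1 (0.18) and Cdh5 (0.10), which mark the same cells, did not pass. Smooth muscle and pericyte markers gave no call in 7 and had a median of -0.12. In 3 of the 7 every CT19 array was below every CT7 array, beside 7.42% of all genes, and in none was it above. Adipocyte markers (11 tested, median -0.034) gave no call.

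Of 12 extracellular matrix genes none passed in MUT fat, and 11 had positive differences. In 8 every CT19 array exceeded every CT7 array, beside 12.9% of all genes. In 1, Mmp2 (-0.18), every CT19 array lay below, beside 7.42% of all genes. Fn1, which encodes fibronectin, came nearest with 11.84, 11.75 and 11.60 at CT19 and 10.98, 11.14 and 11.19 at CT7 (0.62 ± 0.15, adjusted p = 0.0505). The list median was 0.212. In CON fat 6 of the 12 rose, beside 7.47% of all genes, and the list median was 0.301. No member passed in the difference between genotypes. With the mesothelium score added to the model, 16 of the 129 genes passed and no other gene did. They were Npas2, Arntl, Clock, Pdk4, Slc7a8, Dtx4, Prr13, Rasl11a and Noct, which were higher, and Per3, Tef, Dbp, Usp2, Wee1, Nrbp2 and Map2k3, which were lower. Differences in that model were 1.41 for Npas2, -1.28 for Per3 and 0.84 for Pdk4. Aacs (-0.76, adjusted p = 0.272), Angptl4 (0.60, adjusted p = 0.272), Nr1d1 (0.80, adjusted p = 0.272) and Txnip (0.31, adjusted p = 0.604) did not pass in it. Noct, a circadian deadenylase gene, is named because it did.

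**Figure D4:**
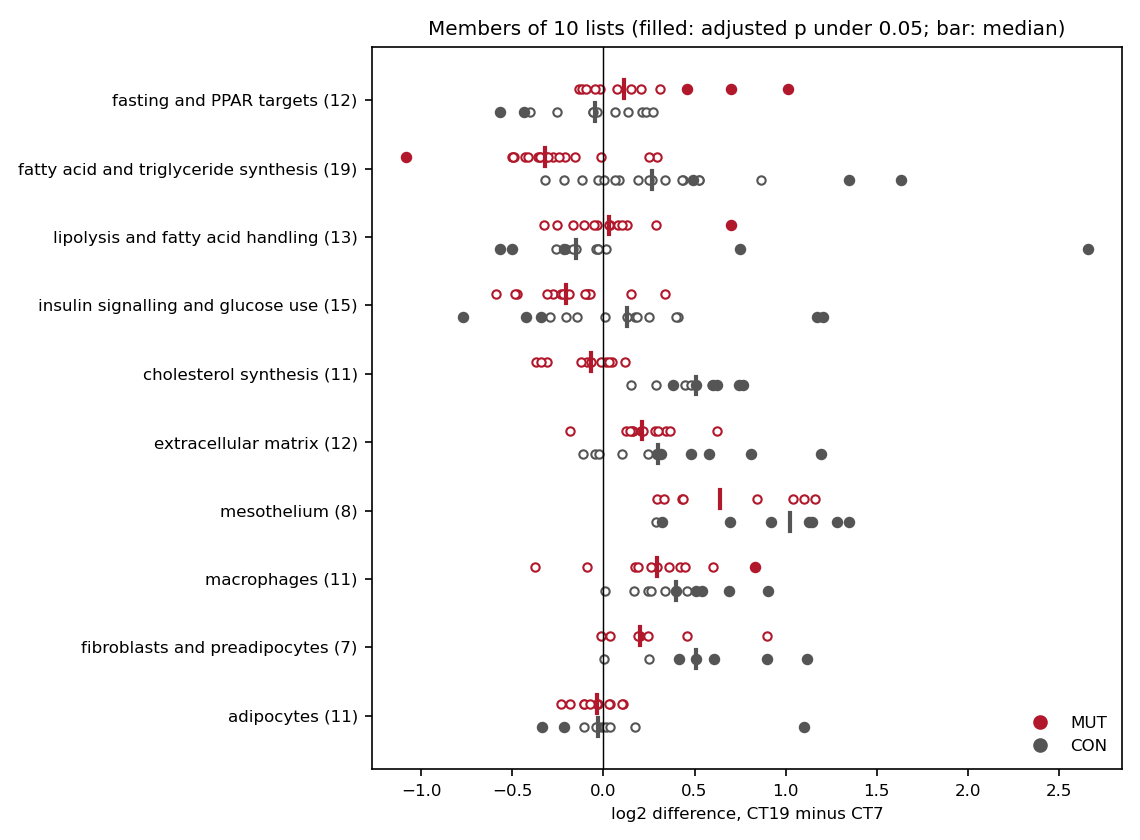
Log2 difference, CT19 minus CT7 (horizontal axis), of every tested member of 10 gene lists, with the number tested in brackets, MUT in red above CON in grey. Filled points passed and bars mark list medians; synthesis genes lie mainly left of 0 in MUT (median -0.323) and right of it in CON, and all 8 mesothelium markers lie right of 0 in both.

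Seen over the 4 times of the day, the genes that passed were placed at the extremes of the MUT profile. The highest of the 4 MUT means lay at CT19 in 84 of the 90 higher genes, and the lowest lay at CT7 in 81 of them. In 37 of the 39 lower genes the lowest MUT mean lay at CT19, and in 36 the highest lay at CT7. Both extremes fell on these times in 76 of the higher and 34 of the lower genes, beside 20.9% of all genes tested. The choice of genes by this contrast contributes to these counts and to those of single extremes. For 24 higher genes all MUT CT19 arrays exceeded all 21 other arrays of the series and for 7 lower genes all lay below, beside 1.16% of all genes. The same choice of genes contributes to these counts. Pdk4, Txnip, Clock, Zim1 and Gbp4 were among those above, and Aacs and Sh2b2 among those below. Exceptions to the CT19 extreme included Arntl, whose MUT mean was highest at CT13 (9.52 ± 0.06 against 9.15 ± 0.21 at CT19, SD, n = 3), and Nr1d1, whose MUT mean was highest at CT1 (11.73 ± 0.06 against 11.66 ± 0.38 at CT19), a gap smaller than the SD at CT19. The lowest MUT mean of Nr1d1 was at CT13 (9.99) and not at CT7.

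Of the 129 genes that passed in MUT fat, 56 also passed in CON fat between the same times. They make up 43.4% of the MUT genes, where 10.7% of all genes tested passed in CON fat. They make up 3.4% of the CON genes, where 0.831% of all genes passed in MUT fat. The sign was shared in 46 and opposite in 10. The fitted difference had the same sign in both genotypes in 93 of the 129 genes (72.1%), beside 58.3% of all genes tested. Across genes, which are not independent replicates, the MUT and CON differences correlated at 0.27. The median absolute difference over all genes was 0.078 in MUT fat and 0.096 in CON fat.

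The difference between genotypes itself, MUT minus CON in CT19 minus CT7, passed in 315 genes (2.03%). It was positive in 152 (0.979%) and negative in 163 (1.05%). It passed in 33 of the 129 genes, 26 of which had opposite signs in MUT and CON. Of the 73 genes that passed in MUT fat and not in CON fat, 21 passed this test, and for the rest a difference between the genotypes was not shown. Among the 8 largest differences between genotypes, only Nr1d1 (3.65) and Rbp7 (1.76) had also passed in MUT fat. Rbp7, a retinoid-binding protein gene, had 9.39, 9.32 and 8.76 in MUT CT19 fat and 8.21, 8.46 and 8.44 in MUT CT7 fat (0.79 ± 0.19, adjusted p = 0.0492), and CON fat moved by -0.98. The Rbp7 call in MUT was kept only without MUT CT19 mouse 3.

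In the other 6 of these 8 genes, the MUT difference did not pass, and the CON difference did. Angptl8 (-2.99), Pnpla3 (-2.13), Ppp1r3c (-1.80) and Bhlhe40 (-1.71) are described above. Asb12, a gene of the ankyrin and SOCS box family, had 7.98, 8.32 and 8.70 in MUT CT19 fat and 8.17, 7.80 and 8.28 in MUT CT7 fat, against 8.0, 8.41 and 8.80 at CT19 and 6.40, 6.44 and 6.36 at CT7 in CON fat. The MUT groups overlapped (0.25), and CON fat at CT7 alone stood low, giving a gap of -1.75 (adjusted p = 0.00289). Pisd-ps3 (2.31, adjusted p = 0.0147) is a pseudogene with near copies, so its value is uncertain. Its MUT CT19 mice 1 and 2 had 10.79 and 10.70, whereas mouse 3 had 9.10.

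**Figure D5:**
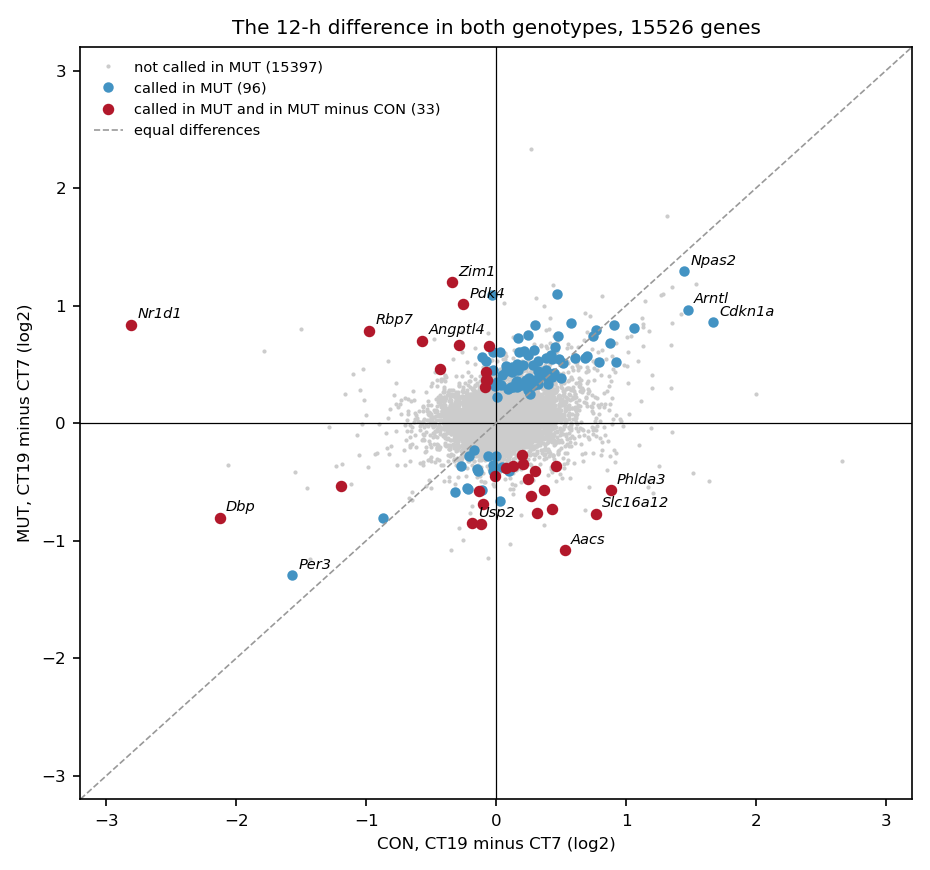
Log2 difference, CT19 minus CT7, in MUT fat (vertical axis) against CON fat (horizontal axis), 1 point for each of 15526 genes. Blue and red points are the 129 genes that passed in MUT, red ones the 33 that also differed between genotypes; Npas2, Arntl and Per3 lie near the dashed line of equal differences and Nr1d1 far from it in the upper left.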

How the data were processed

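RNA of eWAT was labelled with biotin and measured on 24 Affymetrix arrays, per the labels. The deposited log2 values were made by the authors with RMA and Affymetrix Expression Console, per the submitters' processing notes. Their versions and settings and the genome build were not given in the sources used here. Precision is set by 3 arrays per group, and the array medians ran from 7.802 to 7.936.

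The files hold 34390 probe sets, of which 23521 have a single gene symbol, 1814 have several and 9055 have no symbol. Entrez identifiers updated single symbols to GRCm38.p6, and 193 unmatched ones kept the platform annotation's name. For each of 22180 genes the brightest probe set was kept, and 15526 genes above a mean of 7.416 were tested. Per2 was not analysed here. A cell-means model over 8 groups (16 residual degrees of freedom) was fitted with limma 3.58.1 in R 4.3.3, two-sided, with Benjamini-Hochberg adjustment. The script was tested on simulated data.

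Genes named are the clock lists, the 12 highest and 12 lowest that passed in MUT, the 8 largest differences between genotypes, and up to 4 members per function list and 3 per marker list by smallest p; exceptions are marked as such. The members, lists and tests were chosen with earlier results of these data known. In their deviations from group means, same-letter arrays of CT19 and CT7 correlated at -0.101, 0.115 and -0.105 in MUT. This gave no sign that the letters pair the mice, and 3 arrays per group cannot exclude it. Promoters are from RefSeq; Wee1 was not shown. Alternatives covered normalization, level filter, probe set choice, variance model, array weights, a mesothelium covariate, a replicate block, the arrays fitted, a 1.5-fold minimum and each array left out. Figures were drawn with matplotlib 3.10.9.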

Additional observations from a re-analysis of the deposited data

Results flagged for a closer look

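The genes below are listed because the CT19 minus CT7 difference of MUT fat differed from that of CON fat by the test of that difference (limma, adjusted p under 0.05). Each value is MUT minus CON in log2 units, so a positive one means that CT19 stood higher relative to CT7 in MUT than in CON. No explanation was tested.

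Of the clock genes, Nr1d1 had 3.65, Nr1d2 1.70, Dbp 1.32, Per1 0.87 and Ciart 0.79. On the negative side, Bhlhe40 had -1.71, Nfil3 -0.86, Wee1 -0.74, Usp2 -0.66 and Cry1 -0.50. MUT fat itself passed for Nr1d1, Dbp, Usp2 and Wee1 among these 10.

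Of the genes of fuel use and fat storage, positive values belonged to Angptl4 (1.27), Pdk4 (1.26), Irs2 (1.11), Txnip (0.89), Pfkfb3 (0.58), Gpihbp1 (0.58) and Aqp7 (0.55). Negative values belonged to Angptl8 (-2.99), Pnpla3 (-2.13), Ppp1r3c (-1.80), Ppp1r3b (-1.66), Aacs (-1.61), Lep (-1.29), Sh2b2 (-1.16), G0s2 (-1.0), Nampt (-0.94) and Srebf1 (-0.92). Smaller negative values were those of Thrsp (-0.85), Sqle (-0.84), Hk2 (-0.72), Sc5d (-0.72), Dgat2 (-0.49) and Srebf2 (-0.37).

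Among the remaining genes, Pisd-ps3 had 2.31, Rbp7 1.76 and Zim1 1.55. Asb12 had -1.75, Slc16a12 -1.54, Phlda3 -1.45, Rgs7bp -1.08, Ndufa11 -0.89, Ier3 -0.73, Nrbp2 -0.58, Tsc22d3 -0.56 and Hspa8 -0.42. Groups of 3 arrays are too small for the test of single outlying samples, so no array was listed by it.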

How the results depend on the processing

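No gene named for MUT CT19 minus CT7 changed sign with a call under any alternative (0 reversals). The count of genes that passed, 129 in MUT, became 68 after quantile normalization, 67 with no level filter, 1108 with array weights, 16 with the mesothelium score as a covariate, 58 from the 12 MUT arrays alone, 358 from the 6 arrays alone (105 shared) and 41 at 1.5-fold or more. It ranged from 19 to 253 with 1 array left out. With the title letters as a replicate block, for which the check above gave no sign of pairing, it was 71. The difference between genotypes, 315 genes, became 954 with array weights, 517 with the mesothelium covariate, 275 with the replicate block, 165 at 1.5-fold or more and 122 to 315 with 1 array left out. It was 277 (217 higher and 60 lower; 146 shared) without CON CT7 mice 2 and 3, whose signals spread less. CON CT19 minus CT7, 1658 genes, became 2678 with array weights, 597 with the mesothelium covariate and 886 to 1331 with 1 array left out. MUT CT13 minus CT1, 8 genes, became 5 with array weights and 3 to 27 with 1 array left out. Why these counts moved was not tested, beyond the fewer arrays or genes that some alternatives hold. The limits are 3 mice per group, no measure of single mice's phase, and values that start from RMA output, so probe-level background could not be checked.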

Other observations

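Several other genes that passed in MUT fat at CT19 minus CT7 are named here after their values were seen, each by its own test and without a claim about a group. Slc16a1, which encodes the lactate and ketone body transporter MCT1, had 11.06, 11.01 and 10.78 in MUT CT19 fat and 10.07, 10.08 and 10.65 in MUT CT7 fat. The groups did not overlap, with MUT CT7 mouse 3 nearest to CT19 (0.69 ± 0.15 SE, limma adjusted p = 0.0365), and CON fat rose by 0.88. Adcy5, an adenylyl cyclase gene, was higher by 0.67 (adjusted p = 0.0492) with -0.29 in CON fat. Sema3c, a secreted semaphorin gene, was higher by 0.79 in MUT fat and by 0.77 in CON fat. Noct had 9.17, 9.27 and 9.38 in MUT CT19 fat and 9.02, 9.0 and 8.81 in MUT CT7 fat, every CT19 array above CT7 (0.34, adjusted p = 0.0299).

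Among other genes that passed and were higher at CT19 were Alox15, a lipoxygenase gene (0.72), Il18r1 (0.58), Cyba, a subunit of the phagocyte oxidase (0.50), Plek (0.44), Lgals9 (0.39), Lsp1 (0.38) and Il18 (0.36). They were picked for having passed and form no list. Each lost its call without MUT CT7 mouse 1. All but Cyba also lost it without MUT CT19 mouse 1 and without MUT CT19 mouse 2. These genes were higher at the time when the macrophage score given above was higher, and the part of that score in their differences was not tested. The inflammation and interferon lists gave no call, and the macrophage list 1 in 11. Among genes of cofactor supply, Slc5a6, which encodes the transporter of biotin and pantothenate, had 8.60, 8.69 and 8.57 in MUT CT19 fat and 9.15, 9.05 and 9.28 in MUT CT7 fat. Every CT19 array was lower (-0.54, adjusted p = 0.0317), and the CON fall was larger, at -1.20 (gap 0.66, adjusted p = 0.036). Pank3, a pantothenate kinase gene of coenzyme A synthesis (-0.55), and Alas1, the entry enzyme of heme synthesis (-0.57), were lower too.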
